A study of Mus musculus with 10 samples.

Results

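Collagens are the main structural proteins of the extracellular matrix. The genes described here are the collagen genes, taken as every gene whose symbol is Col, a number, the letter a and a number, which gave 44 of the 48476 genes in the table of the series. The RNA came from mouse embryonic fibroblasts (MEFs) of CBA/CaJ X C57BL/6J embryos at stage E13.5, which were infected with retroviruses made in PlatE packaging cells and then kept in iCD1 medium, a serum-free reprogramming medium. The methods describe the MEFs as carriers of an Oct4-GFP reporter. Both arms received Oct4, Klf4 and Sox2 (OKS), the factors that drive fibroblasts towards induced pluripotent stem cells. One arm also received FoxO6, a forkhead transcription factor, and the control arm received DsRed, a red fluorescent protein that the labels write as DR. A single library was made per arm at days 0, 1, 3, 5 and 7, which gives 10 libraries with no replicate, and every value is a bulk average over all the cells of a dish, whether or not a cell took up the viruses or was reprogramming. The comparisons ask how FoxO6 changes the transcripts of OKS-driven reprogramming.

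A collagen molecule is a triple helix of chains, and each chain has its own gene. Fibrillar collagens (types I, II, III, V, XI, XXIV and XXVII) assemble into the fibrils of connective tissue and are made in large amounts by fibroblasts. Type IV collagens form the sheet-like network of basement membranes, on which epithelial cells sit. Type VI makes beaded filaments, FACIT collagens such as type XII bind to the surface of fibrils, and transmembrane collagens such as type XVII stay anchored in the cell. Fibroblasts that become pluripotent pass through a mesenchymal to epithelial transition, in which they leave the fibroblast programme and take on epithelial junctions.

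Several collagen genes lie side by side in the mouse genome (GRCm38, GENCODE M21). Of the 44 genes, 8 pairs were at most 100 kb apart, and in 4 of these pairs both genes had enough counts to be tested. Col4a1 (ENSMUSG00000031502, chr8:11198423-11312826, minus strand) and Col4a2 (ENSMUSG00000031503, chr8:11312805-11449287, plus strand), the chains of the common type IV network, are head to head, and their annotated first exons share 22 bases. The use of strand in counting is not stated, so reads from these bases could count for either gene. The shared stretch is shown because both genes start from it in opposite directions, in plus strand orientation of chr8:11312805-11312826.
Col4a1 and Col4a2: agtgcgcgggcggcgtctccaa
Col3a1 (chr1:45311538-45349706) and Col5a2 (chr1:45374321-45503282) are tail to tail, 24614 bases apart. Col6a2 (chr10:76595762-76623630) and Col6a1 (chr10:76708792-76726168) lie on the minus strand 85161 bases apart.

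Promoter windows (250 bases before to 50 after the start, RefSeq on GRCm38.p6) were given for 35 of the 44 collagen genes. The forkhead core motif GTAAACA, searched on both strands, was in the window of 1 of these 35 genes, Col6a1, against 3.65% of 32851 promoter windows of all genes. The bases before the first exon of Col6a1 are shown on the minus strand, from chr10:76726169-76726294, with the motif in capitals, and 204 bases lie between the motif and the RefSeq start.
Col6a1: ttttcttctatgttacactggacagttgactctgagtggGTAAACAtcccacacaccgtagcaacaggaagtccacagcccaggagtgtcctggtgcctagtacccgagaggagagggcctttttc
The CCAAT motif, likewise on both strands, was in the windows of 13 of the 35 genes, Col1a2, Col4a1 and Col4a2 among them, against 37.4% of all windows. A match describes these letters only.

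The expected counts of the libraries summed to between 1208379 and 2225750. Foxo6 itself, which checks the labels, had at most 2.29 TPM in the control arm and between 762.11 and 1356 TPM in the FoxO6 arm, day 0 included. TPM is a transcript level scaled by transcript length and library size, so it can be compared between genes. Of the 44 genes, 32 reached 10 expected counts in a library, and 22 passed the filter for low counts and were tested. The other 12 genes had at most 9 counts and at most 8.21 TPM in any library, and 1 of them, Col13a1, was listed at 0 in all 10. They were Col4a3, Col4a4, Col6a4, Col6a6, Col8a2, Col9a1, Col9a2, Col11a2, Col13a1, Col19a1, Col24a1 and Col26a1. A gene can pass the filter through 1 arm alone, so the tested genes are not a neutral sample of the 44.

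Collagen transcripts took a smaller share of the RNA at day 7 than at day 0, mostly through the fibrillar genes. The 44 genes together held 0.556% of all TPM at day 0 and 0.166% at day 7 in the control arm, and 0.515% and 0.222% in the FoxO6 arm. In the comparison of day 7 with day 0, with both arms in 1 edgeR quasi-likelihood fit (1 library of each arm on each day), 14 of the 22 tested genes were lower and 0 were higher at an adjusted p under 0.05. Over all 10977 genes tested, 10.1% were called lower and 11.2% higher. The median log2 change was -1.81 over the tested collagens and 0.03 over all genes. In bulk RNA, fewer fibroblast-like cells and less collagen RNA per cell cannot be told apart.

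By class, 7 of 8 tested fibrillar genes were called lower, together with 2 of 4 type IV genes, 1 of 4 type VI genes, 2 of 2 FACIT genes, Col7a1 (the anchoring fibril collagen) and Col8a1 (a short chain network collagen of vessel walls). Col12a1, a FACIT collagen of tendon and skin, had the largest change. Its TPM in the control arm was 225, 64.0, 10.4, 8.38 and 7.10 at days 0, 1, 3, 5 and 7, and in the FoxO6 arm it was 255, 27.7, 10.6, 7.42 and 5.02. The level was highest at day 0 in both arms and the arms crossed between days. From day 0 to day 7 the log2 change was -5.46 (SE 0.346, adjusted p = 4.39e-06, edgeR). On counts scaled to library size (CPM) it was 28.7-fold lower in the control arm and 76.7-fold lower in the FoxO6 arm.

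Col1a1 and Col1a2 encode the chains of type I collagen, the main collagen of skin and bone, in which Col1a1 chains outnumber Col1a2 chains. The TPM of Col1a1 was 1354, 453, 125, 70.2 and 98.2 in the control arm, on the same order of days, and 1087, 256, 64.8, 76.2 and 78.8 in the FoxO6 arm. Both arms were far below their day 0 level from day 3 on, and the FoxO6 arm was lower on every day but day 5. The log2 change from day 0 to day 7 was -3.75 (SE 0.262, adjusted p = 6.23e-06, edgeR). The shift between the arms over the 5 days was -0.48 (SE 0.152) and missed the threshold (adjusted p = 0.0566).

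Col1a2 behaved differently between the arms. Its TPM was 1615, 1538, 1255, 374 and 262 in the control arm and 1336, 1048, 1444, 1119 and 758 in the FoxO6 arm. The FoxO6 arm was lower at days 0 and 1 and higher at days 3, 5 and 7. On CPM the ratio of FoxO6 to control was 0.742, 0.674, 1.12, 2.86 and 3.29 on the 5 days, and the 95% exact binomial interval of the last, which covers counting error only, was 3.08 to 3.51. A straight-line difference in course between the arms (FoxO6 minus control, in log2 per day) was called in 2 of the 22 tested genes, Col1a2 and Col6a5, both with a positive slope, against 1.98% of all genes tested (1.21% with a positive slope). For Col1a2 the slope was 0.36 per day (SE 0.0427, adjusted p = 0.00212, edgeR), and it stayed past the threshold without any 1 of the days. Over both arms Col1a2 fell by 1.64 on the log2 scale from day 0 to day 7 (SE 0.495, adjusted p = 0.0365), 6.87-fold on CPM in the control arm and 1.55-fold in the FoxO6 arm. DESeq2 gave that fall an adjusted p of 0.0582, and 0.0631 was given by edgeR with the trend of each library with transcript length removed.

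**Figure D1:**
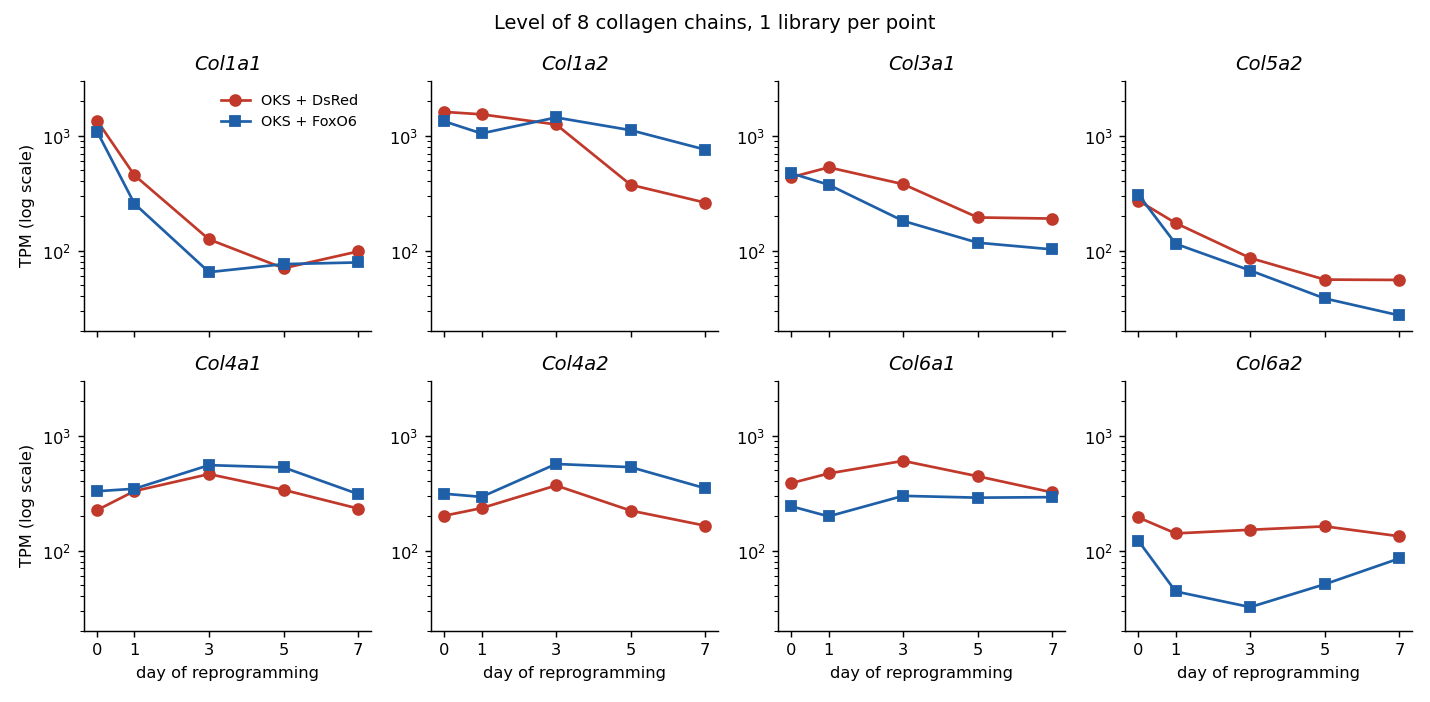
TPM (log scale) of 8 collagen genes against the day of reprogramming, with 1 point per library, circles for OKS + DsRed and squares for OKS + FoxO6. Col1a1 was low in both arms from day 3, Col1a2 was at 758 TPM in the FoxO6 arm and at 262 in the control arm at day 7, and Col6a2 was lower in the FoxO6 arm on all 5 days.

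The other fibrillar genes split by direction between the arms. In the shift over the 5 days, fitted in edgeR with day as a factor, 5 of the 22 tested collagens were higher and 4 were lower in the FoxO6 arm, against 6.93% and 7.13% of all genes tested (14.1% in either direction). The 5 include Col28a1, which passed the filter on low counts only through the FoxO6 arm, where it was high. The median shift was -0.25 over the tested collagens and -0.02 over all genes. Of the 8 tested fibrillar genes 2 were higher and 2 were lower. Without day 3 only 2 collagens were called higher and 1 lower, without day 5 3 and 3, and without day 1 5 and 1. With no day term 0 collagens were called, where 168 of all genes were called and 1735 had an unadjusted p under 0.05.

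Col3a1, the chain of type III collagen, which forms thin fibrils with type I, and Col5a2, a type V chain that nucleates fibrils, were lower in the FoxO6 arm. Col3a1 had a TPM of 435, 531, 379, 194 and 190.0 in the control arm and 471, 375, 181, 117 and 102 in the FoxO6 arm, lower on every day but day 0. Its shift was -0.64 (SE 0.153, adjusted p = 0.0191, edgeR). It missed the threshold without day 1 (adjusted p = 0.0532), without day 3 (0.105) and without day 5 (0.0957). Col5a2 had 272, 174, 86.1, 55.8 and 55.4 TPM in the control arm and 308, 114, 67.0, 38.2 and 27.2 in the FoxO6 arm, again lower on every day but day 0. Its shift of -0.49 (SE 0.138, adjusted p = 0.0389, edgeR) missed the threshold without any 1 of days 1, 3, 5 and 7 (adjusted p from 0.0652 to 0.156). From day 0 to day 7 Col3a1 fell by 1.68 and Col5a2 by 2.86 on the log2 scale (adjusted p = 0.000617 and 1.45e-05, edgeR).

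Col2a1 and Col11a1, the cartilage fibril chains, were higher in the FoxO6 arm on all 5 days. Col2a1 had 38.4, 17.1, 9.87, 14.9 and 15.7 TPM in the control arm and 66.9, 17.5, 22.9, 20.7 and 24.2 in the FoxO6 arm, and its shift was 0.73 (SE 0.154, adjusted p = 0.0102, edgeR). Col11a1 had 44.5, 32.3, 16.5, 6.80 and 9.44 TPM in the control arm and 68.8, 36.0, 29.8, 23.9 and 11.2 in the FoxO6 arm. Its shift was 0.82 (SE 0.195, adjusted p = 0.0184, edgeR), which missed the threshold without day 3 (0.083) and without day 5 (0.0611). Both genes fell from day 0 to day 7, Col2a1 by 1.37 and Col11a1 by 2.51 on the log2 scale. The 5 chondrocyte markers were low in all libraries, with a sum of at most 5.90 TPM, and Acan, the cartilage proteoglycan, had at most 1.12 TPM. Col5a1, the partner chain of Col5a2, fell by 3.63 from day 0 to day 7 (SE 0.231) and its shift between the arms was -0.38 (adjusted p = 0.0936). Col5a3, a minor type V chain, was the fibrillar gene not called from day 0 to day 7 (log2 change -0.69, SE 0.389).

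**Figure D2:**
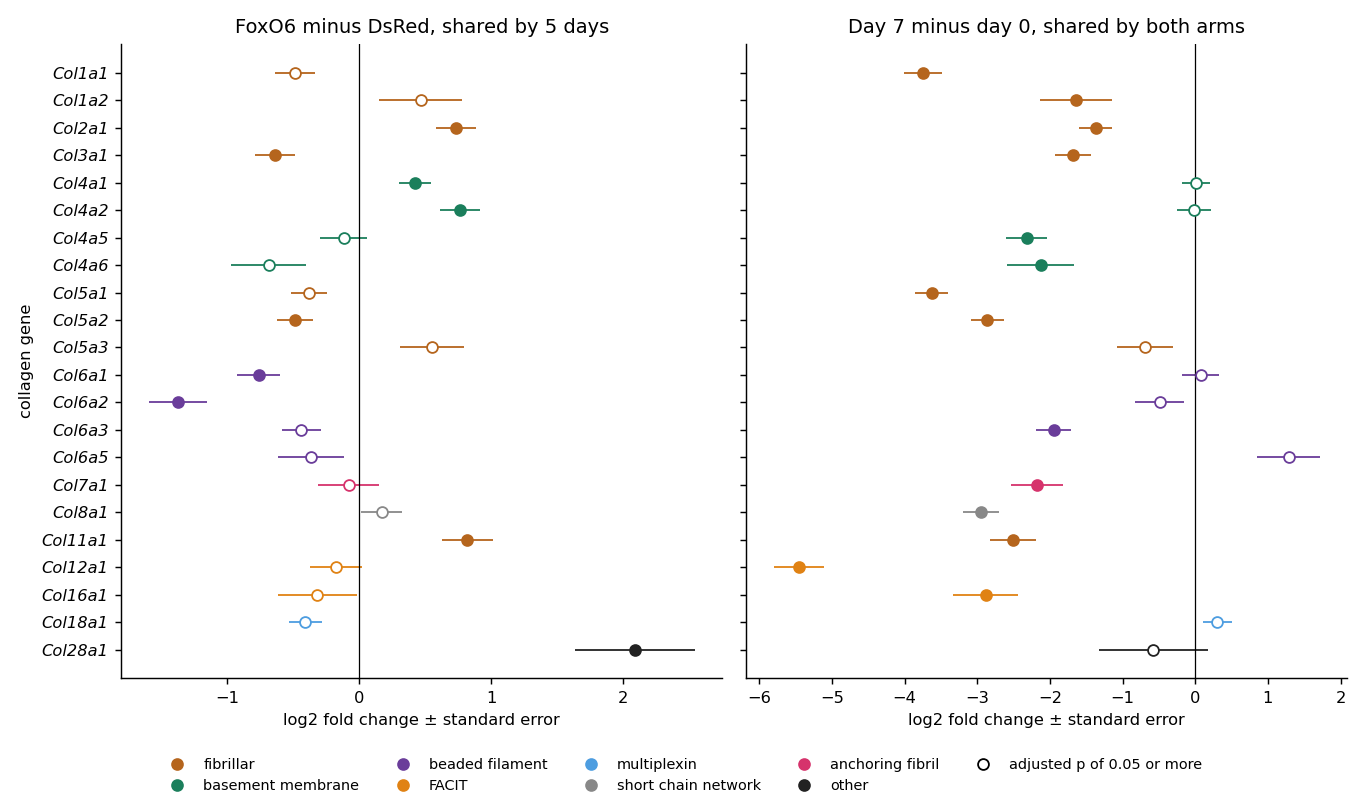
Log2 fold change with its standard error (edgeR) for the 22 tested collagen genes, coloured by class, for FoxO6 minus DsRed over 5 days (left) and day 7 minus day 0 over both arms (right). Filled points have an adjusted p under 0.05: 5 genes are higher and 4 lower on the left, and 14 are lower on the right, where Col4a1, Col4a2 and Col6a1 sit at 0.01, -0.01 and 0.07.

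Of the 4 tested type IV genes, Col4a1 and Col4a2 were higher in the FoxO6 arm and were not called with time, whereas Col4a5 and Col4a6 fell with time and were not called between the arms. Col4a1 and Col4a2 held between 84.0% and 97.6% of the type IV TPM in every library. Col4a1 had a TPM of 225, 329.9, 464, 338 and 232 in the control arm and 329, 346, 555, 530.5 and 311 in the FoxO6 arm. Col4a2 had 201, 234, 369, 223 and 165 in the control arm and 313, 294, 568, 533 and 349 in the FoxO6 arm. Both genes were highest at day 3 in both arms, and the FoxO6 arm was higher on all 5 days. The log2 change from day 0 to day 7 was 0.01 for Col4a1 (SE 0.192) and -0.01 for Col4a2 (SE 0.234), and neither was called.

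The shift between the arms was 0.76 for Col4a2 (SE 0.150, adjusted p = 0.00732, edgeR) and 0.42 for Col4a1 (SE 0.122, adjusted p = 0.0407). The call of Col4a2 held without any 1 of the days. That of Col4a1 missed the threshold without day 3 (adjusted p = 0.110), without day 5 (0.173), without day 7 (0.0685) and with the trend with transcript length removed (0.0672). The ratio of FoxO6 to control on CPM for Col4a2 was 1.40, 1.24, 1.52, 2.31 and 2.34 on the 5 days, and for Col4a1 it was 1.22, 1.05, 1.27, 1.67 and 1.62. The difference in slope was 0.136 per day for Col4a2 (adjusted p = 0.0828) and 0.0844 for Col4a1 (adjusted p = 0.223), so a change of the gap over time was not called.

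Col4a5 and Col4a6, the X-linked type IV chains, are head to head as well, with 1308 bases between them. Col4a5 had 69.7, 44.6, 38.5, 14.3 and 20.6 TPM in the control arm and 78.6, 32.1, 35.5, 22.6 and 14.9 in the FoxO6 arm, and fell by 2.32 on the log2 scale from day 0 to day 7 (SE 0.285, adjusted p = 0.000201, edgeR). Col4a6 had 8.23, 13.02, 7.49, 2.66 and 2.18 TPM in the control arm and 7.71, 3.32, 3.27, 3.15 and 1.53 in the FoxO6 arm, and fell by 2.13 (SE 0.461, adjusted p = 0.00677). Their shifts between the arms were -0.12 and -0.69 (adjusted p = 0.727 and 0.137, edgeR). Col4a3 and Col4a4, the chains of the mature kidney filter, had at most 5 and 7 counts.

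Summed over the class, fibrillar TPM was 3966, 2829.5, 1918, 737 and 651 in the control arm and 3525, 1900.5, 1844, 1421 and 1023 in the FoxO6 arm. Summed type IV TPM was 508, 623, 879, 578 and 423 in the control arm and 729, 675, 1163, 1090.3 and 677 in the FoxO6 arm. The ratio of fibrillar to type IV TPM was 7.81, 4.54, 2.18, 1.27 and 1.54 in the control arm and 4.83, 2.81, 1.59, 1.30 and 1.51 in the FoxO6 arm. It was lower in the FoxO6 arm at days 0, 1 and 3 and close to the control at days 5 and 7. The mean difference of the log2 ratio between the arms was -0.37 ± 0.351 (SD over 5 days). Type IV genes made up 9.13% of collagen TPM at day 0 and 25.4% at day 7 in the control arm, and 14.2% and 30.5% in the FoxO6 arm. These sums rest on few genes, as Col1a1, Col1a2 and Col3a1 held between 82.1% and 92.3% of the fibrillar TPM, and without those 3 genes the mean difference was -0.62.

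**Figure D3:**
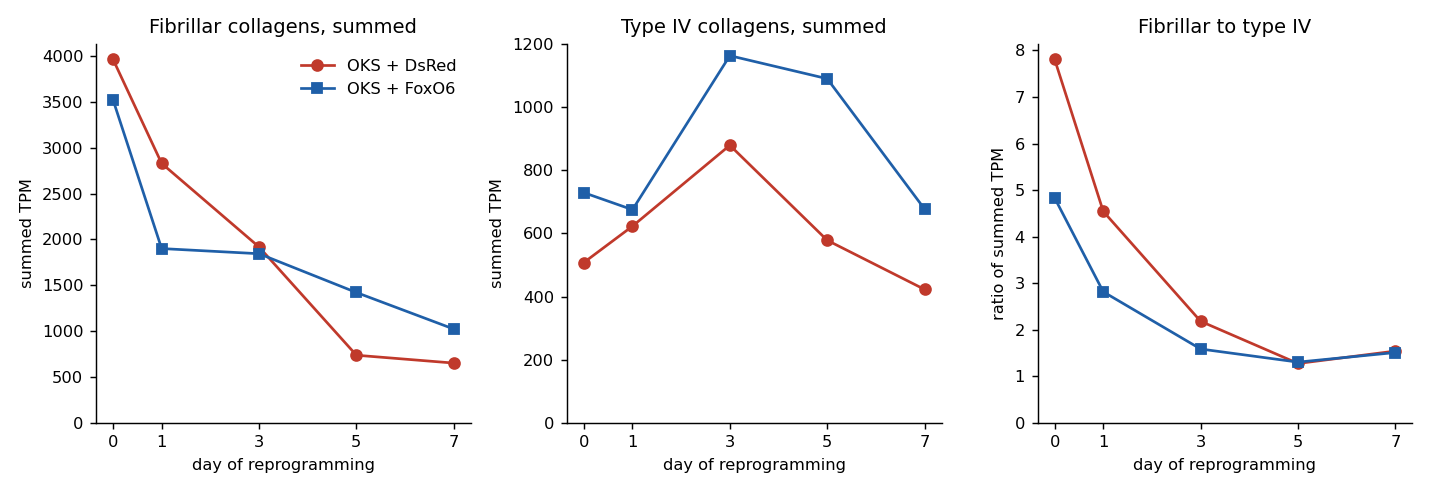
Summed TPM of the fibrillar collagens (left), of the type IV collagens (middle) and their ratio (right) by day, with 1 point per library, circles for OKS + DsRed and squares for OKS + FoxO6. The fibrillar sum is highest at day 0 and the type IV sum at day 3 in both arms, the type IV sum is higher in the FoxO6 arm on all 5 days, and the ratio is 1.54 and 1.51 at day 7.

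Partner chains of 1 molecule did not keep their ratio of levels. The TPM of Col1a2 was 1.19, 3.40, 10.03, 5.33 and 2.66 times that of Col1a1 in the control arm and 1.23, 4.09, 22.3, 14.7 and 9.62 times in the FoxO6 arm. The arms were alike at day 0 and the ratio was highest at day 3 in both. The ratio of Col4a1 to Col4a2 moved less, from 1.12 to 1.52 in the control arm and from 0.890 to 1.18 in the FoxO6 arm, lower in the FoxO6 arm on each day. These ratios come from 1 library each and were not tested.

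**Figure D4:**
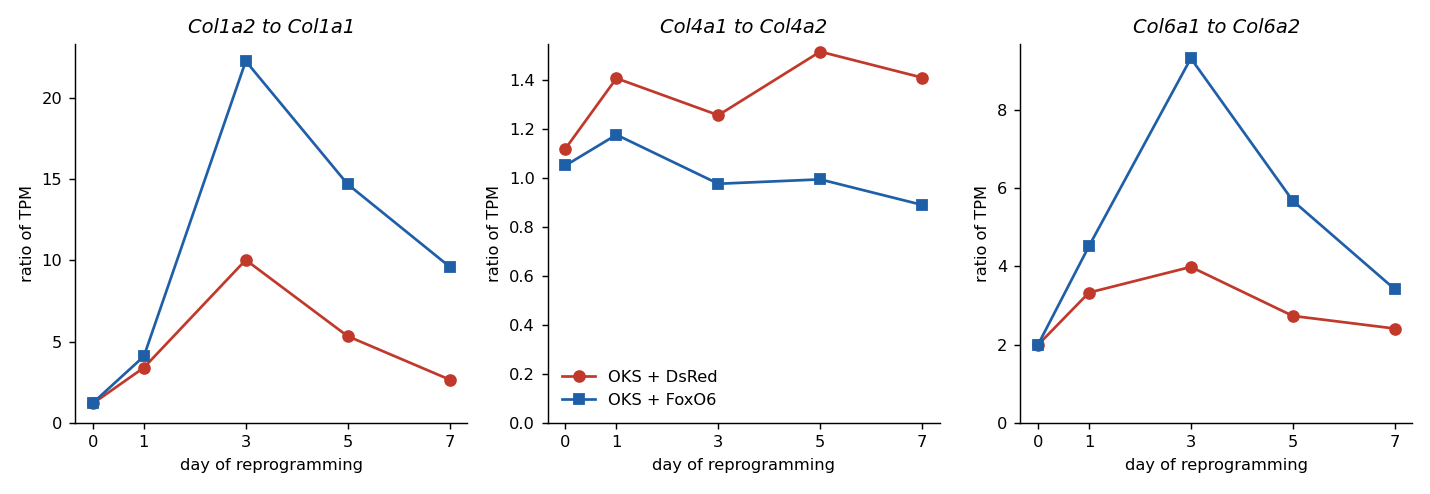
Ratio of the TPM of 2 chains of one collagen type by day: Col1a2 to Col1a1 (left), Col4a1 to Col4a2 (middle) and Col6a1 to Col6a2 (right), with 1 point per library, circles for OKS + DsRed and squares for OKS + FoxO6. The left and right ratios peak at day 3, at 22.3 and 9.32 in the FoxO6 arm and at 10.03 and 3.99 in the control arm.

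Of the 4 tested type VI genes, 2 were lower in the FoxO6 arm and 0 were higher, against 7.13% and 6.93% of all genes tested. Col6a1 and Col6a2 encode obligate partner chains of the type VI filament. Col6a2 had a TPM of 194, 141, 152, 163 and 133 in the control arm and 122, 44.0, 32.2, 50.9 and 85.4 in the FoxO6 arm, so the arms did not overlap. Its shift was -1.37 (SE 0.223, adjusted p = 0.00264, edgeR), and on CPM the FoxO6 arm was 4.75-fold lower at day 3 (95% interval 3.88 to 5.85) and 1.42-fold lower at day 7. Col6a1 had 387, 469.8, 605, 444 and 321 TPM in the control arm and 243, 199, 299.8, 289 and 292 in the FoxO6 arm, again with no overlap. Its shift was -0.76 (SE 0.162, adjusted p = 0.0106, edgeR), which missed the threshold without day 1 (0.0504) and without day 3 (0.0662), and on CPM the arms were equal within counting error at day 7 (ratio 0.999, 95% interval 0.920 to 1.08). The ratio of Col6a1 to Col6a2 TPM was 1.99, 3.33, 3.99, 2.73 and 2.41 in the control arm and 1.997, 4.52, 9.32, 5.68 and 3.42 in the FoxO6 arm.

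Neither Col6a1 nor Col6a2 was called from day 0 to day 7 (log2 changes of 0.07 and -0.49), while Col6a3, the largest of these chains, fell by 1.95 (SE 0.241, adjusted p = 0.00021, edgeR). Col6a3 had 84.9, 84.0, 25.5, 20.8 and 19.4 TPM in the control arm and 81.1, 37.5, 16.5, 25.2 and 27.2 in the FoxO6 arm. The TPM was higher in the FoxO6 arm at days 5 and 7, whereas the CPM ratios on those days were 0.953 and 0.72, and the shift on counts was -0.44 (adjusted p = 0.0789, edgeR). Col6a5, a chain thought able to replace Col6a3 in the molecule, was low and differed in course. Its TPM was 7.91, 26.8, 35.6, 13.9 and 6.46 in the control arm and 6.31, 12.7, 20.9, 31.7 and 15.6 in the FoxO6 arm, highest at day 3 in the former and at day 5 in the latter. On CPM, the scale of the test, the ratio of FoxO6 to control was 0.53, 0.45, 0.604, 1.08 and 1.65, so the gap in TPM at day 5 was not seen in the counts. The slope difference was 0.276 per day (SE 0.0585, adjusted p = 0.032, edgeR), and it missed the threshold with DESeq2 (0.156) and without any 1 of days 1, 3, 5 and 7 (0.0557 to 0.322).

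Col28a1, a minor collagen, had a fitted shift between the arms of 2.09 on the log2 scale (SE 0.456, edgeR), from few counts. Its expected counts were 7, 4, 8, 11 and 0 in the control arm and 22, 17, 71, 47 and 20 in the FoxO6 arm, so it passed the filter through the FoxO6 arm alone, where it was high. Its call is for that reason no support for a difference, and no p is given. Its TPM was 2.60, 1.27, 2.63, 3.85 and 0 in the control arm and 4.79, 4.96, 17.5, 11.1 and 5.36 in the FoxO6 arm. Without day 3 the shift was 1.88 and missed the threshold.

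The remaining called genes fell with time and were not called between the arms. Col16a1, a FACIT collagen, had 32.1, 11.03, 3.89, 2.2 and 4.04 TPM in the control arm and 22.1, 5.08, 7.89, 2.11 and 4.40 in the FoxO6 arm. Col8a1 had 71.8, 17.8, 32.3, 15.0 and 9.78 TPM in the control arm and 96.1, 14.0, 32.3, 23.9 and 11.3 in the FoxO6 arm. Col7a1 had 18.2, 8.28, 5.35, 1.76 and 5.52 TPM in the control arm and 12.4, 9.62, 3.72, 3.63 and 9.79 in the FoxO6 arm. Each was highest at day 0 in both arms, and the arms overlapped. Their log2 changes from day 0 to day 7 were -2.89, -2.95 and -2.18 (SE 0.442, 0.252 and 0.359). Col5a1 had 194, 74.3, 31.5, 14.3 and 16.5 TPM in the control arm and 171, 43.0, 22.6, 15.8 and 14.1 in the FoxO6 arm. Col18a1, a basement membrane collagen and the source of endostatin, was between 23.6 and 51.0 TPM in all 10 libraries and was called in none of the 3 tests.

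Of the 32 genes with at least 10 counts in a library, 10 were too low for the test. Col25a1, a transmembrane collagen made by neurons, had 3, 33, 90, 26 and 15 counts in the control arm and 1, 9, 11, 9 and 3 in the FoxO6 arm. The control arm was higher on each day, and at day 3 the FoxO6 arm was 11.1-fold lower on CPM (95% interval 5.91 to 23.0). With no filter on low counts edgeR gave a shift of -2.49, in a fit of 22663 genes. That fit gave smaller p-values to the called collagens than the fit with the filter. For Col6a2 the adjusted p was 4.78e-18 without the filter and 0.00264 with it (edgeR). The p of Col25a1 from that fit is not comparable with those above and is not given. Col17a1, the hemidesmosome collagen of epithelia, had 0, 0, 7, 25 and 21 counts in the control arm and 0, 2, 1, 25 and 55 in the FoxO6 arm. By the lower limit of the exact 95% interval, its CPM at day 7 was at least 3.19-fold higher than at day 0 in the control arm and at least 19.9-fold higher in the FoxO6 arm. The other 8 genes were Col9a3, Col10a1, Col14a1, Col15a1, Col20a1, Col22a1, Col23a1 and Col27a1, with at most 44 counts in a library. Col10a1, the collagen of hypertrophic cartilage, had 7, 1, 0, 0 and 0 counts in the control arm and 19, 3, 5, 3 and 0 in the FoxO6 arm. Col27a1, a fibrillar collagen, had 15, 24, 5, 2 and 5 counts in the control arm and 33, 18, 6, 8 and 2 in the FoxO6 arm. Both had most of their counts at days 0 and 1. Col15a1, a basement membrane collagen, reached its 44 counts in the control library of day 7, where the FoxO6 arm had 9, a CPM 4.08-fold lower (95% interval 1.97 to 9.51). Col22a1, a FACIT collagen, had 12 counts in the control library of day 3 and 0 in that of the FoxO6 arm, a CPM at least 3.76-fold lower by the same kind of limit.

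At single days, 40 of the 44 genes had at least 1 TPM in a library, and a difference past 2-fold in TPM + 1 was counted with no test. In the FoxO6 arm 1, 1, 3, 6 and 6 of them were past 2-fold higher at days 0, 1, 3, 5 and 7, against 10.8%, 8.5%, 8.87%, 10.9% and 8.52% of all genes. Past 2-fold lower were 2, 9, 10, 3 and 3, against 6.96%, 10.1%, 12.0%, 12.0% and 16.8%. Several of these differences rest on few counts. Of those lower, Col6a4 and Col22a1 at day 1 had 3 counts in each arm, and Col4a4 at day 7 had 5 in each. Col4a3 at day 0 had 1 count in the control arm and 5 in the FoxO6 arm. Of those higher, Col9a1 at day 7 had 0 counts in the control arm and 3 in the FoxO6 arm. All 4 type VI genes that were tested were among the 9 at day 1. Col1a2, Col4a2, Col6a5 and Col28a1 were among the 6 at both day 5 and day 7, but Col6a5 at day 5 had a CPM ratio of FoxO6 to control of 1.08 (95% interval 0.82 to 1.42). With a pseudocount of 0.1 in place of 1, these sums over the 5 days went from 17 to 34 higher and from 27 to 45 lower.

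The genes that modify, export, cut and cross-link collagen were followed with a list of 43, of which 35 were tested. From day 0 to day 7, 17 were lower and 0 higher, against 10.1% and 11.2% of all genes tested, with a median log2 change of -0.56 beside 0.03 over all genes. The lowest were the cross-linking enzymes Lox (-5.68, SE 0.267), Loxl2 (-4.83, SE 0.260) and Loxl1 (-4.68, SE 0.326), and the called genes with the smallest falls were P4hb (-0.54), the beta subunit of prolyl hydroxylase, the collagen receptor Ddr2 (-0.58) and Crtap (-0.74). Leaving out day 1, 3 or 5 lost the call of P4hb (adjusted p up to 0.0728, edgeR). That of Ddr2 was lost without day 1 or 5 (up to 0.0511). Lox had a TPM of 349, 45.9, 25.7, 9.99 and 7.21 in the control arm and 533, 84.7, 50.7, 23.9 and 9.75 in the FoxO6 arm.

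Between the arms 6 of the 35 tested genes of that list were higher in the FoxO6 arm and 2 lower, against 6.93% and 7.13% of all genes tested. Higher were Itga1, the alpha subunit of a collagen receptor (2.71, SE 0.299), Ctsk, a protease that degrades collagen (1.62, SE 0.221), Mia3, which loads procollagen into transport carriers (0.93, SE 0.132), Lox (0.80, SE 0.150), Ddr2 (0.77, SE 0.104) and Loxl4 (0.74, SE 0.215). Ctsk had 35.2, 53.7, 63.3, 32.2 and 20.6 TPM in the control arm and 84.0, 138, 137, 143 and 115 in the FoxO6 arm, with no overlap. Lower were Adamts3, a procollagen N-propeptidase (-1.46, SE 0.358), and the receptor Ddr1 (-0.47, SE 0.129). Itga1 passed the filter on low counts mainly through the FoxO6 arm and Adamts3 mainly through the control arm, so their calls are given as a description. The calls of Lox, Ddr2, Loxl4, Adamts3 and Ddr1 were lost with no day term, that of Adamts3 also without day 1 or 3, and those of Loxl4 and Ddr1 also without day 1, 3 or 5. That of Ddr1 was lost with DESeq2 too. Pcolce and Pcolce2, which enhance the removal of the C-propeptide of fibrillar procollagens, were the genes of the list called in slope, at 0.247 per day (SE 0.0465, adjusted p = 0.0191, edgeR) and 0.344 per day (SE 0.0487, adjusted p = 0.00364). The call of Pcolce was lost without day 1 or day 7. Pcolce had 555, 511, 531, 318 and 235 TPM in the control arm and 419, 278, 381, 434 and 400.5 in the FoxO6 arm, lower in the FoxO6 arm up to day 3 and higher at days 5 and 7.

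Markers of several cell types are given beside these values. The summed TPM of 8 fibroblast markers went from 7067 at day 0 to 2579 at day 7 in the control arm and from 6872 to 2304 in the FoxO6 arm. Those of 5 epithelial markers went from 12.1 to 639 and from 3.66 to 138, and those of 5 pluripotency markers were at 287 and 49.2 at day 7. Their part in the collagen values was not tested. Of 5 endothelial markers, whose cells lay down type IV collagen, Kdr and Tek were higher in the FoxO6 arm at days 3, 5 and 7, the sum was 20.9 to 54.8 TPM in the control arm and 30.5 to 142 in the FoxO6 arm, and the defining markers Pecam1, Cdh5 and Emcn had at most 5.73, 1.24 and 0.26 TPM. For 5 primitive endoderm markers the sum was 5.6 to 12.05 TPM in the control arm and 9.23 to 14.1 in the FoxO6 arm. This sum and Gata6 (at most 12.4 TPM) were higher in the FoxO6 arm on all 5 days. Gata4 and Foxa2 changed direction between days, and Sox17 was listed at 0 in all libraries. The sums of 5 macrophage, 3 keratinocyte and 3 osteoblast markers were at most 55.8, 15.3 and 4.62 TPM. Of 5 skeletal muscle markers, Myf5 and Myog were listed at 0 throughout and Acta1 had 236 TPM in the FoxO6 library of day 7.

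Genes outside the collagens with the most similar course over the 10 libraries were found by Pearson correlation of log2(TPM + 1) among 11400 genes with a mean of at least 5 TPM, as a description. Both arms share much of their course, a fall with time for the fibrillar sum and a peak at day 3 for the type IV sum. The 10 points are therefore not independent. The 5 most like the fibrillar sum were Cxcl12 (r = 0.982), Grb14 (0.976), Bmper (0.973), Wisp1 (0.971) and Gna12 (0.97). The 5 most like the type IV sum were Marcks (r = 0.963), Zfp282 (0.946), Gpr135 (0.945), Flcn (0.924) and Lrp10 (0.922).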

How the data were processed

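RNA-seq was measured in 10 libraries, grouped by the arm and day in their labels. Reads had been mapped to the GENCODE M13 transcriptome (mm10) with bowtie2 and RSEM, and the authors deposited expected counts, RSEM estimates that need not be whole and are not normalized. TPM, also an RSEM output, was deposited by the authors in the same files. Tool versions are not given in the sources used here, the labels name a VAHTS mRNA-seq kit and the methods a TruSeq kit, and whether strand was used is not stated. The depth, 1208379 to 2225750 expected counts per library, leaves low genes with few reads. Intervals cover counting error only.

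Expected counts were rounded and all genes fitted in R 4.3.3 with edgeR 4.0.16 (quasi-likelihood, TMM, filterByExpr by arm, Benjamini-Hochberg over 10977 genes, threshold 0.05). The arm shift and day 7 against day 0 came from arm plus day as a factor, and the slope added arm times day number, with 4 and 3 residual degrees of freedom. Standard errors are the log2 change divided by the root of F and are approximate. The spread is that of arm by day, and all days of 1 arm could stem from 1 culture, so p-values describe these 2 time courses. Alternatives were DESeq2 1.42.0, its size factors in edgeR, no filter, a length trend removed, no day term, each day left out, CPM, another pseudocount and other class members. On simulated data the shift, day 7 and slope tests recovered 198, 194 and 200 of 200 changed genes with 12, 13 and 10 false calls. The simulated libraries were independent, and the planted log2 changes were 2, 2 and 0.57 per day. Most called collagen shifts and the called collagen slopes were smaller, and days of 1 arm may be related. The simulation therefore does not give the power or error rate for these calls. Python 3.11.15 with pandas 2.3.3, scipy 1.17.1 and matplotlib 3.10.9 computed the rest.

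Collagen classes and marker lists follow textbook knowledge. Members and lists were chosen with earlier results of these data known. Values in every library are given for genes called in any test and for Col1a1, Col1a2, Col3a1, Col4a1 and Col4a2, and of the processing list the genes named are those called in the shift or slope and the 3 lowest and 3 highest called from day 0 to day 7. Col25a1, Col17a1, Col5a3, Col10a1, Col15a1, Col22a1, Col27a1 and Col18a1 were singled out after their values were seen. Promoter windows of 9 collagen genes were not used here. The result of 1 marker list is not reported here.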

Additional observations from a re-analysis of the deposited data

Results flagged for a closer look

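Col1a2 and Col6a5 had a course over the days that differed between the arms, by a test of the difference itself. The slope of FoxO6 minus DsRed was 0.36 in log2 per day for Col1a2 (SE 0.0427, adjusted p = 0.00212, edgeR's quasi-likelihood test), with the FoxO6 arm lower on 2 days and higher on 3. The slope was 0.276 per day for Col6a5 (SE 0.0585, adjusted p = 0.032), from at most 145.05 expected counts in a library, with the FoxO6 arm lower on 3 days and higher on 2. That call was lost with DESeq2 (adjusted p = 0.156) and without any 1 of days 1, 3, 5 and 7 (0.0557 to 0.322).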

How the results depend on the processing

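The shift between the arms was fitted with day as a factor, which pairs the libraries of the arms by day, and the fit with no day term is its unpaired form. No direction of a called collagen or collagen processing gene changed under any alternative that was run. Of the values of called collagen genes under alternatives, 174 stayed past the threshold and 32 did not, 9 of these with no day term and the rest named in the report beside each gene. The cause was not tested. Of the 174, 25 came from the fit with no filter, where the p-values of the called collagens were smaller. Genes higher in the shift (5 as reported) were 0 with no day term and 2 to 5 with a day left out. Genes lower (4) were 0 with no day term and 1 to 5 with a day left out. Genes higher at day 7 (0) were 3 with no filter, where 43 genes were tested, 1 with DESeq2 and 0 to 1 with a day left out. Genes with a positive slope (2) were 4 with no filter, 5 with the length trend removed, 1 with DESeq2 and 1 to 2 with a day left out. Differences past 2-fold on single days went from 17 to 34 higher and from 27 to 45 lower with a pseudocount of 0.1, and to 12 lower with the length trend removed, where 22 genes had values. The difference in log2 ratio of fibrillar to type IV TPM was between -0.62 and -0.29. The count of genes lower at day 7 was between 13 and 16. For the collagen processing list, added after seeing the data, genes higher in the shift (6) were 3 with no day term and 5 to 7 with a day left out, and genes lower (2) were 4 with the length trend removed, 0 with no day term, 1 with DESeq2 and 0 to 5 with a day left out. Its genes with a positive slope (2) were 5 with no filter, where 43 genes were tested, and 1 to 2 with a day left out, and its genes lower at day 7 (17) were between 15 and 21. Depth limits the 22 genes that were not tested.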
